A study of Mus musculus with 9 samples.

Results

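Keratins and other intermediate filament genes were followed through 9 RNA-seq libraries of a mouse kidney cell line. The set was chosen by name and holds 9 genes of the 55487 identifiers in the count table: the type II keratins Krt7, Krt8 and Krt80, the type I keratins Krt18, Krt19 and Krt20, and Vim, Nes and Lmna. All 9 were found. The low-count filter kept 7 of them, and Krt18 and Krt19 were left out of the test.

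The cells are PT-22,Pax8-pTRIPZ, described by the submitters as a proximal tubule line, and all groups share the genotype Pax2-/-,Pax8fl/fl,Rosa-CreERT2. Cre fused to the tamoxifen-responsive estrogen receptor sits at the Rosa locus and acts once 4-hydroxytamoxifen is given, and pTRIPZ is a doxycycline-inducible lentiviral vector that here carries Pax8. Of the 3 groups of 3 replicates (A, B and C), day 0 cells received neither drug. Day 6 cells had received 1 uM 4-hydroxytamoxifen, and day 12 cells had received that and then 1 ug/ml doxycycline, with a doxycycline interval of 2 days. Serum was 3% in all groups. The labels give 2 days of 4-hydroxytamoxifen in one place and 6 days of depletion in another. Whether A, B and C were grown as independent cultures is not stated, so the p-values reflect only library-to-library spread, which may be technical. A vehicle control, a later untreated library and a day 12 library without doxycycline were not analysed here, so the effects of time in culture, of each drug and of Pax8 cannot be told apart.

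Intermediate filaments are the flexible cables of the cytoskeleton and of the nuclear lamina. Keratins are the filaments of epithelia, and each filament is built from pairs of a type I and a type II keratin, so that an epithelial cell normally makes members of both types. Simple epithelia such as kidney tubules use mainly the KRT8 and KRT18 pair, often with KRT7 and KRT19. Vimentin is the type III filament of mesenchymal cells and of many cultured cells, nestin is a type VI filament that assembles with vimentin, and lamins A and C line the nucleus.

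The libraries held between 56397100 and 86765292 counts. Pax8 itself measured between 289 and 292 CPM (read counts scaled to library size with TMM factors) at day 0, between 399 and 411 at day 6, and between 487 and 503 at day 12. A count over the whole gene, which may include reads of the vector's Pax8, does not check the loss of floxed exons, and the groups are therefore named by day and treatment. Of 12 proximal tubule markers, Lrp2, Aqp1 and Ass1 had 1 or more TPM (transcript abundance per length, scaled to a fixed total), 8 were below 0.1 TPM in every library, and the transporters Slc34a1, Slc22a6 and Slc5a12 were at 0 in all 9. The summed TPM of the 12 was 137 to 149 at day 0, 317 to 322 at day 6 and 349 to 374 at day 12. Of the 4 tested, 2 were higher and 2 lower at day 6 against day 0, with Aqp1 and Ass1 higher and Lrp2 lower, at 391 ± 44 and then 58.7 ± 10 CPM (SD, n = 3). In bulk RNA, fewer cells that express a gene and less RNA per cell cannot be told apart.

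Between day 0 and day 6, after 4-hydroxytamoxifen, most of the tested filament genes fell. Krt80, Krt20, Nes, Krt7 and Vim were lower at day 6, by 2.99-fold for Krt80 down to 1.14-fold for Vim, while Krt8 and Lmna were higher, by 1.67-fold and 1.16-fold. At day 12, after doxycycline, Krt80, Krt20 and Nes had risen again from day 6 without reaching their day 0 level on the CPM scale. Krt7 stayed near its day 6 level, and Krt8 was highest at day 12. With edgeR's quasi-likelihood test, 7 of the 7 members tested were called at day 6 against day 0 (adjusted p under 0.05), where 64.9% of all 16353 genes tested were called (33.5% higher, 31.4% lower). A share this large across all genes means that a call alone does not set these genes apart. The sizes and the order of the groups are given below as description. The share of all genes whose groups are separate was not counted, so separation does not set these genes apart either.

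**Figure D1:**
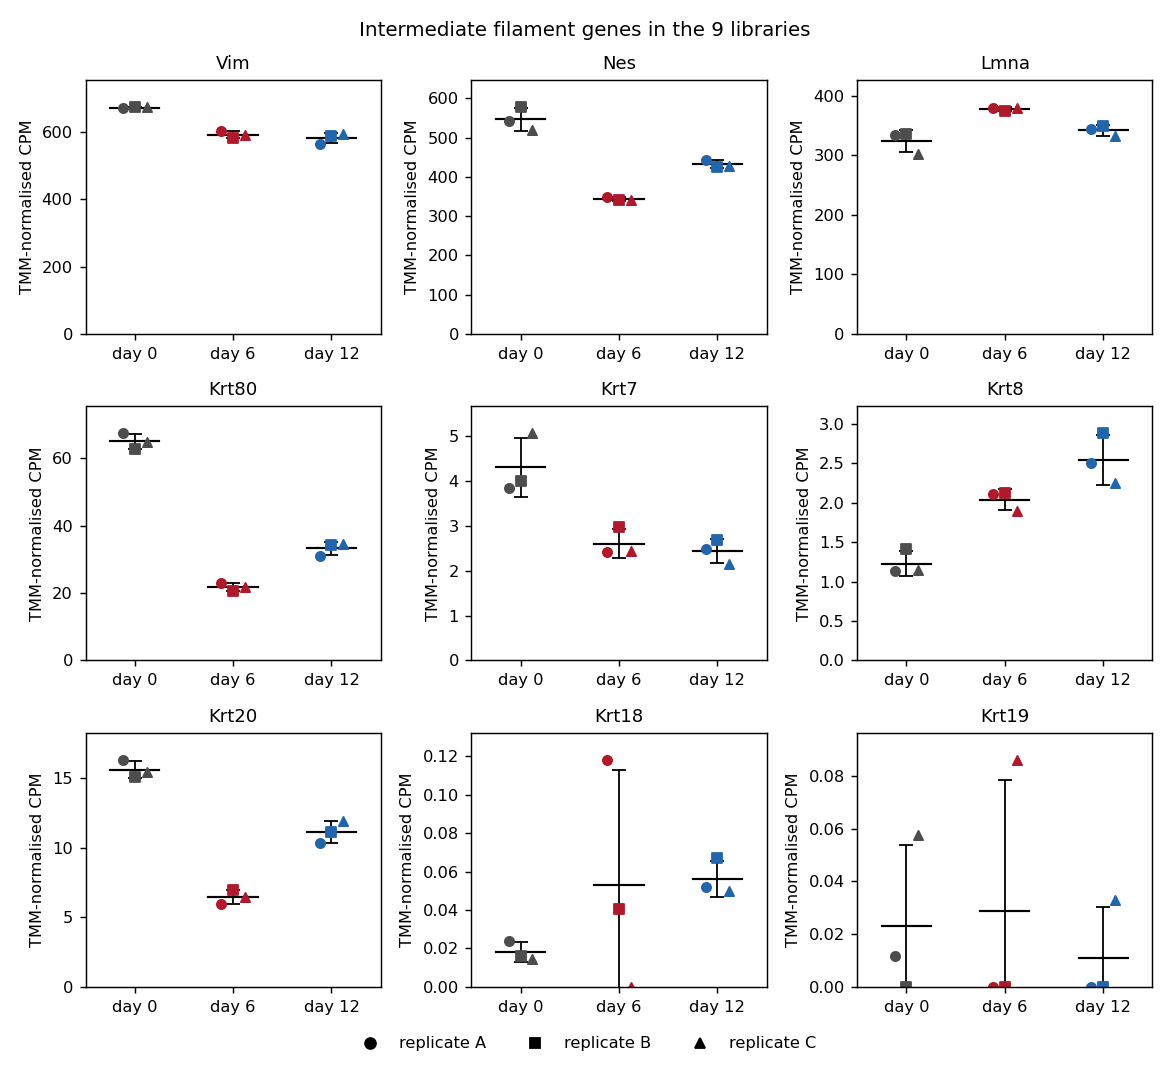
CPM (vertical axes, from 0) of the 7 tested members and of Krt18 and Krt19 in each library, by day (horizontal axis), with points for libraries, horizontal lines for the mean and bars for the SD of 3 libraries. Krt80 is highest at day 0 (62.8 to 67.4 CPM), lowest at day 6 (20.5 to 23.1) and between them at day 12 (31 to 34.7), while Krt8 is lowest at day 0.

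Krt80 (ENSMUSG00000037185, GRCm38 chr15:101347444-101370162, minus strand) encodes a type II keratin known from epithelia at an advanced stage of differentiation, and was the most abundant keratin of the 6. Its values were 67.4, 62.8 and 64.9 CPM at day 0 (replicates A, B and C), 23.1, 20.5 and 21.8 at day 6, and 31, 34.2 and 34.7 at day 12. The 3 groups did not overlap in either step, and the order was day 0, then day 12, then day 6. The log2 fold change was -1.58 ± 0.052 (SE, edgeR adjusted p = 5.75e-13) for day 6 against day 0, the largest of the 7 members in either direction. It was 0.61 ± 0.053 for day 12 against day 6 (edgeR adjusted p = 3.74e-07), which is 38.7% of the earlier log2 fall. Against day 0, day 12 was 1.96-fold lower (edgeR adjusted p = 1.61e-10). On log2(TPM + 1) the fall was -1.45, the return 0.77 and the gap that was left -0.68 (limma adjusted p = 4.02e-06), so the share that returned depends on the scale. Krt80 shares 263 exon bases with Gm35853 on the opposite strand, a model with 297 counts over the 9 libraries, and the strand setting of the counting is not given in the sources used here.

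Krt20 (ENSMUSG00000035775, chr11:99428403-99438150, minus strand) encodes a type I keratin best known from intestinal epithelium, from the umbrella cells of the urothelium and from injured kidney tubules. It was the only one of the type I members above 1 TPM. Its values were 16.3, 15.1 and 15.4 CPM at day 0, 5.95, 6.99 and 6.47 at day 6, and 10.3, 11.1 and 11.9 at day 12. As with Krt80, no day 6 library reached a library of another group, and day 12 lay between. Krt20 was 2.41-fold lower at day 6 than at day 0 (log2 fold change -1.27 ± 0.072, edgeR adjusted p = 3.88e-10). From day 6 to day 12 it rose 1.71-fold (0.77 ± 0.073, edgeR adjusted p = 9.1e-07), which is 60.9% of the fall on the log2 scale. Day 12 was still 1.41-fold below day 0 (-0.50, edgeR adjusted p = 1.04e-05). On log2(TPM + 1) the fall was -1.09, the return 0.87 and the gap that was left -0.22 (limma adjusted p = 0.0235), smaller than on counts. Among 6 urothelial markers, a list that includes Krt20, Upk1b was at 0 in every library, and Upk2, Upk3a and Upk1a reached at most 0.07, 0.12 and 0.34 TPM. Upk3b moved as Krt20 did, with means of 2.23 ± 0.47, 0.581 ± 0.14 and 1.65 ± 0.12 CPM over the 3 groups (SD, n = 3). It fell by 1.93 ± 0.2 at day 6 on the log2 scale (edgeR adjusted p = 5.54e-07) and rose by 1.49 from day 6 to day 12 (edgeR adjusted p = 3.62e-05). The part of urothelial markers in the Krt20 values was not tested.

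Krt7 (ENSMUSG00000023039, chr15:101411043-101430313, plus strand) encodes a type II keratin of ducts, collecting duct and urothelium. It measured 3.85, 4.01 and 5.06 CPM at day 0, 2.41, 2.98 and 2.43 at day 6, and 2.49, 2.68 and 2.14 at day 12. All day 0 libraries were above all later ones, and days 6 and 12 overlapped. Krt7 was 1.64-fold lower at day 6 (log2 fold change -0.72 ± 0.13, edgeR adjusted p = 0.000183) and 1.76-fold lower at day 12 (-0.81 ± 0.13, edgeR adjusted p = 5.82e-05) than at day 0. Between days 6 and 12 the log2 difference was -0.10 ± 0.14 (edgeR adjusted p = 0.61). The deposited TPM, which also divide by transcript length, gave 2.97, 2.55 and 2.33 at day 0 and 2.31, 2.41 and 1.87 at day 12. On that scale the day 0 and day 12 groups overlapped, and replicate C was the lowest day 0 library where it was the highest on CPM. With limma on log2(TPM + 1) the difference between day 12 and day 0 was -0.18 (adjusted p = 0.122), so the day 12 call on Krt7 holds for counts and not for TPM.

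Krt8 (ENSMUSG00000049382, chr15:101996698-102004482, minus strand) encodes the type II partner in the main keratin pair of simple epithelia. It was the only keratin of the set to rise after 4-hydroxytamoxifen. Its values were 1.13, 1.41 and 1.15 CPM at day 0, 2.11, 2.12 and 1.89 at day 6, and 2.51, 2.88 and 2.25 at day 12, from 263, 410 and 545 counts in the 3 groups. The lowest library of each later group lay above the highest of the group before. The log2 fold change was 0.74 ± 0.15 at day 6 (edgeR adjusted p = 0.000361) and 1.06 ± 0.14 at day 12 (edgeR adjusted p = 9.25e-06), both against day 0, a 2.08-fold higher level at day 12. The step from day 6 to day 12 was 0.32 ± 0.14 with an edgeR adjusted p of 0.068, and was not called. Leaving out 1 library at a time gave 0.22 (edgeR adjusted p = 0.257, without day 12 replicate B) to 0.40 (edgeR adjusted p = 0.0428, without day 12 replicate C). Upper-quartile factors gave 0.36 (edgeR adjusted p = 0.044), and on log2(TPM + 1) it was 0.35 (limma adjusted p = 0.0031). Krt8 shares 101 exon bases with the opposite-strand model Gm36026 (30 counts in all), and the pseudogene Krt8-ps held 0 or 1 count in a library. Of 10 markers of collecting duct and distal tubule, 7 were below 0.1 TPM in every library. Their summed TPM was 2.34 to 3.35 at day 0, 3.03 to 3.33 at day 6 and 4.73 to 5.03 at day 12. Gata3 made up most of that sum, at 5.1 ± 0.25, 4.98 ± 0.084 and 7.3 ± 0.61 CPM over the 3 groups (SD, n = 3). Gata3 was not called at day 6 against day 0 (edgeR adjusted p = 0.739), but rose by 0.55 from day 6 to day 12 on the log2 scale (edgeR adjusted p = 4.49e-05). Only 2 of the 10 were tested, and the other was Aqp3, at 0.256 ± 0.07, 0.511 ± 0.12 and 0.273 ± 0.074 CPM. Aqp3 rose by 1.02 at day 6 (edgeR adjusted p = 0.0113) and fell by 0.92 from day 6 to day 12 (edgeR adjusted p = 0.028). The part of these markers in the Krt8 values was not tested.

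Krt18 (ENSMUSG00000023043, chr15:102028180-102032027, plus strand) encodes the usual type I partner of KRT8 and lies 23.7 kb from Krt8. It was close to the limit of detection. The libraries held 2, 1 and 1 counts of Krt18 at day 0, 8, 3 and 0 at day 6, and 4, 5 and 3 at day 12. These sums of 4, 11 and 12 counts correspond to 0.0179 CPM (95% exact Poisson interval 0.00488 to 0.0459), 0.0534 CPM (0.0267 to 0.0956) and 0.0602 CPM (0.0311 to 0.105), and the intervals cover counting error only. The ratio of day 12 to day 0 was 3.36 with a counting interval of 1.02 to 14.3, and that of day 6 to day 0 was 2.98 (0.883 to 12.8). Neither ratio is a test between conditions, because the spread between libraries does not enter it.

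Krt19 (ENSMUSG00000020911, chr11:100140810-100148665, minus strand) is the smallest keratin, and it marks ducts and progenitor compartments of simple epithelia. It gave 1, 0 and 4 counts at day 0, 0, 0 and 5 at day 6, and 0, 0 and 2 at day 12. In each group replicate C held most of its counts. A difference between groups was not detectable at this depth, since 3 counts over a group, the upper limit that a count of 0 allows, already stand for 0.0134 to 0.015 CPM. The day 12 to day 0 ratio was 0.448 with a counting interval of 0.0426 to 2.73.

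Within the 6 members, Krt20 thus had nearly all the type I TPM, and Krt80 had most of the type II TPM, with less from Krt8 and Krt7. Outside them, the type I keratin Krt10 had means of 6.94, 5.16 and 6.89 TPM at days 0, 6 and 12, beside 12.2, 5.23 and 10.4 for Krt20. The ratio of summed type I to summed type II TPM over the 6 keratins was 0.363 to 0.365 at day 0, 0.34 to 0.427 at day 6 and 0.433 to 0.489 at day 12. Day 12 lay above both earlier groups in every library, whereas days 0 and 6 overlapped. The log2 difference was 0.08 ± 0.097 for day 6 against day 0 (exact two-sided permutation p = 0.4), 0.24 ± 0.11 for day 12 against day 6 (exact p = 0.1) and 0.32 ± 0.053 for day 12 against day 0 (exact p = 0.1). A comparison of 3 with 3 libraries cannot go below 0.1. When every keratin at a mean of 1 TPM or more was summed, which adds the type I keratin Krt10 and the type II keratin Krt90, the difference was 0.47 at day 6 and 0.45 at day 12 against day 0, and -0.02 between days 6 and 12.

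The following ratios were chosen after the values had been seen and are given without a test. Krt8 TPM divided by Krt7 TPM was 0.293 to 0.427 at day 0, 0.884 to 0.95 at day 6 and 1.01 to 1.13 at day 12. The order of these type II keratins thus ran from Krt7 above Krt8 at day 0 to similar levels at day 12, when their libraries overlapped. The summed TPM of the 6 keratins was 46 ± 1.7 before treatment, 19.1 ± 0.34 on day 6 and 33.5 ± 1.5 on day 12 (SD, n = 3). Krt80 and Krt20 made up 92.1%, 81.8% and 86.1% of that sum. As a share of keratins, Vim and Nes together, the 6 keratins were 5.64 to 6.05% at day 0, 2.82 to 2.97% at day 6 and 4.1 to 4.46% at day 12. At all 3 times Vim alone was thus above the 6 keratins together on the TPM scale.

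**Figure D2:**
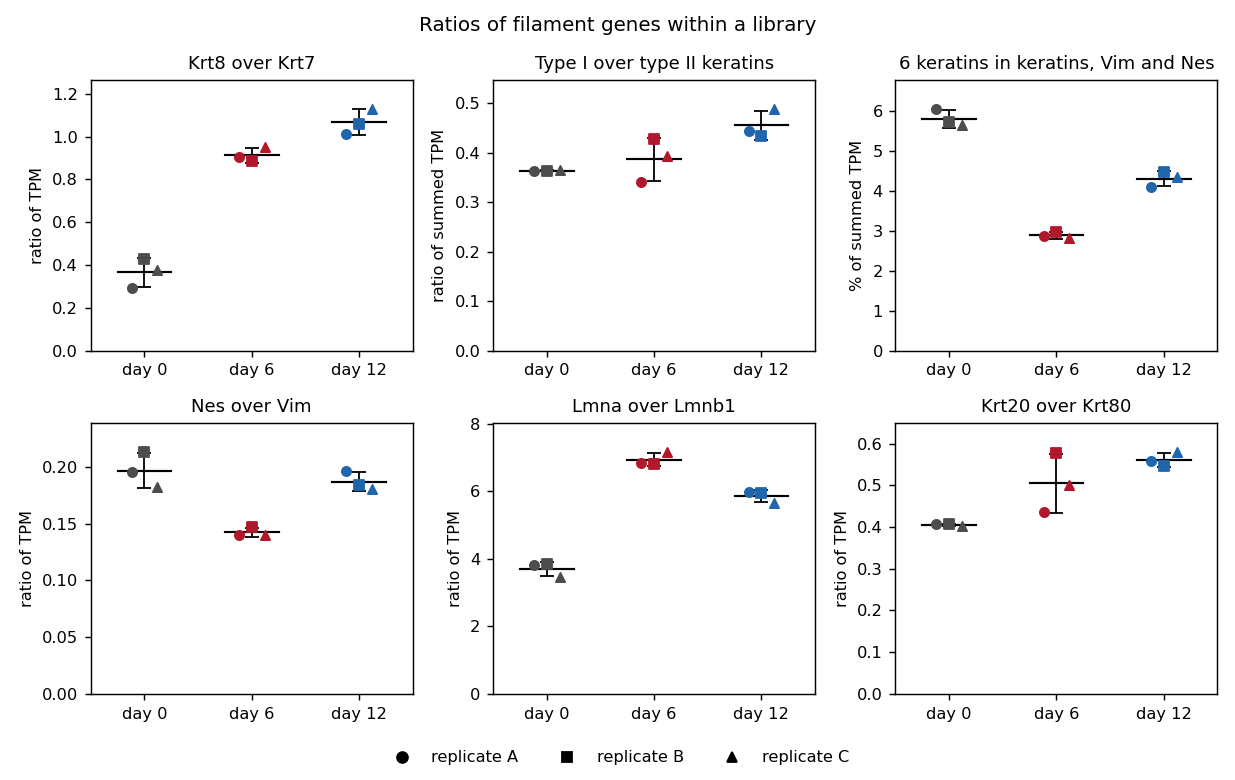
Ratios of TPM within each library (vertical axes, from 0) by day (horizontal axis), with points for libraries, horizontal lines for the mean and bars for the SD of 3 libraries. Krt8/Krt7 rises from 0.293 to 0.427 at day 0 to 1.01 to 1.13 at day 12, and Lmna/Lmnb1 is highest at day 6.

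Vim (ENSMUSG00000026728, chr2:13573927-13582826, plus strand) was the most abundant member. It measured 669, 673 and 672 CPM at day 0, 602, 580 and 591 at day 6, and 563, 587 and 593 at day 12. Days 6 and 12 overlapped, and both lay below day 0. The fall was small, at 1.14-fold for day 6 (log2 fold change -0.18 ± 0.031, edgeR adjusted p = 9.13e-05) and 1.16-fold for day 12 (-0.21 ± 0.031, edgeR adjusted p = 2.72e-05) against day 0. On the TPM scale Vim stood at 623, 612 and 639 at day 0, 582, 540 and 572 at day 6, and 626, 605 and 654 at day 12. There the lower level at day 12 was absent, and the limma log2 difference from day 0 was 0.01 (adjusted p = 0.893). Over all genes tested, the median difference between day 12 and day 0 was 0.186 on log2(TPM + 1) and 0.254 on log2(TPM + 0.1). On the TMM scale the median was 0.03. Of 9 stromal markers, 6 were tested, and 4 of them were higher and 1 lower at day 6 against day 0. Pdgfrb rose from 0.0762 ± 0.027 to 2.45 ± 0.26 CPM and Col3a1 from 0.00879 ± 0.0077 to 0.756 ± 0.11, while Dcn fell from 4.92 ± 0.068 to 0.442 ± 0.065 and was back at 5.08 ± 0.68 on day 12 (SD, n = 3). Thy1 was at 0 in every library, and Pdgfra reached at most 0.02 TPM and Lum 0.05. The 9 summed to 4.98 to 5.25 TPM at day 0, 3.62 to 3.83 at day 6 and 9.49 to 10.3 at day 12, and their part in the Vim values was not tested.

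Nes (ENSMUSG00000004891, chr3:87971078-87980451, plus strand) encodes nestin, a filament of progenitor and dividing cells that is also found in podocytes. Its values were 543, 578 and 520 CPM at day 0, 350, 342 and 341 at day 6, and 444, 424 and 428 at day 12. The 3 groups were separate, with the same order as Krt80 and Krt20. Nes was 1.59-fold lower at day 6 than at day 0 (log2 fold change -0.67 ± 0.038, edgeR adjusted p = 4.11e-10). It then rose 1.25-fold (0.33 ± 0.038, edgeR adjusted p = 6.33e-06), which is 49% of the fall, and the rise was 0.54 on log2(TPM + 1). The remaining gap to day 0 was 1.27-fold on counts (edgeR adjusted p = 1.16e-06), but on log2(TPM + 1) it was -0.07 (limma adjusted p = 0.251), with overlapping groups. The ratio of Nes to Vim TPM within a library, which no scaling between libraries can alter, was 0.182 to 0.213 at day 0, 0.14 to 0.147 at day 6 and 0.18 to 0.196 at day 12. Proliferation markers moved the same way at first, with 8 of 8 lower at day 6 and a median log2 fold change of -1.01. Their median for day 12 against day 6 was 0.05, with 2 of 8 higher and 1 lower. Podocyte markers summed to 134 to 144 TPM at day 0, 89.1 to 93.7 at day 6 and 135 to 148 at day 12. The part of either list in the Nes values was not tested.

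Lmna (ENSMUSG00000028063, chr3:88480147-88509956, minus strand) encodes lamins A and C and was the second most abundant member per length. It measured 335, 336 and 303 CPM at day 0, 380, 374 and 380 at day 6, and 345, 350 and 332 at day 12. On this scale day 6 was above both other groups in every library, and days 0 and 12 overlapped. On the TPM scale the values were 206, 209 and 185, then 239, 236 and 244, then 257, 248 and 245, so that day 12 was highest and apart from both earlier groups. Lmna was 1.16-fold higher at day 6 than at day 0 (log2 fold change 0.22 ± 0.039, edgeR adjusted p = 0.00014). It fell by 0.14 from day 6 to day 12 on the log2 scale (edgeR adjusted p = 0.00767), a step that was 0.06 with limma on log2(TPM + 1) (adjusted p = 0.264). Day 12 against day 0 was not called on TMM-scaled counts (0.08, edgeR adjusted p = 0.0961) but was called with limma on log2(TPM + 1) (0.32, adjusted p = 0.000125) and with upper-quartile factors (0.11, edgeR adjusted p = 0.0197). Lmnb1, the gene of lamin B1, moved the opposite way. Its means were 105 ± 2.6 CPM before treatment, 65.9 ± 1 on day 6 and 70.1 ± 0.89 on day 12 (SD, n = 3), with a log2 fold change of -0.67 ± 0.03 at day 6 (edgeR adjusted p = 2.11e-11). The ratio of Lmna to Lmnb1 TPM was 3.46 to 3.84 at day 0, 6.82 to 7.17 at day 6 and 5.67 to 5.97 at day 12, so that the 3 groups were separate on a measure taken within each library.

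**Figure D3:**
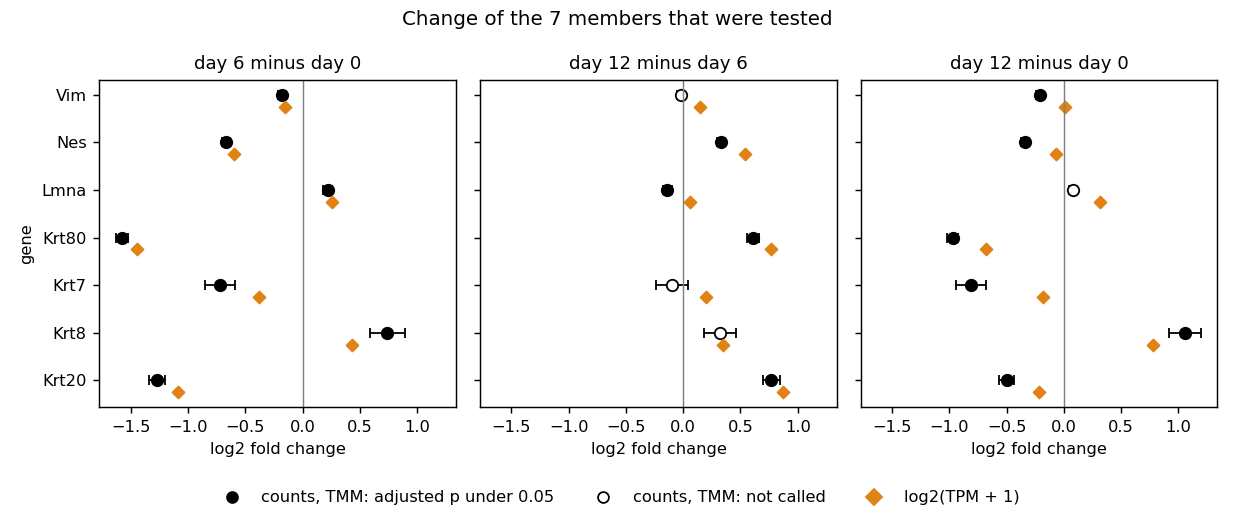
Log2 fold change (horizontal axis) of the 7 tested members in each comparison, one panel for each, with circles for counts (filled where called, bars for the SE of edgeR's fit) and diamonds for log2(TPM + 1). Day 6 against day 0 has 5 members below zero and 2 above, and day 12 against day 6 has Krt80, Krt20 and Nes above zero with a call.

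Counted over the comparisons, 2 members were higher and 5 lower at day 6 against day 0. From day 6 to day 12, 3 were higher (Krt80, Krt20 and Nes), 1 was lower (Lmna) and 3 were not called, where 45.3% of all genes tested were called (22.6% higher, 22.7% lower). Between day 0 and day 12, 1 was higher (Krt8), 5 were lower and Lmna was not called (log2 difference 0.08 ± 0.039, edgeR adjusted p = 0.0961), where 66.4% of all genes were called (34.7% higher, 31.7% lower). The median log2 fold change of the 7 was -0.67, 0.32 and -0.34 in that order of comparisons, beside medians over all genes tested of 0.02, 0.01 and 0.03. The comparisons share libraries, day 6 in particular entering both steps with opposite sign. With limma on log2(TPM + 1) the day 12 counts differed, with 5 members higher and 0 lower against day 6, and 2 higher and 2 lower against day 0. The share of called genes that were higher at day 12 than at day 6 was 50% with TMM and 90.1% on that TPM scale. The 7 calls at day 6 against day 0 were the same on both scales, though on log2(TPM + 1), which understates the change of low genes, the sizes for Krt7 and Krt8 were -0.38 and 0.43.

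Ranked by mean TPM at day 0, the order was Vim, Lmna, Nes, Krt80, Krt20, Krt7, Krt8 and then Krt19 and Krt18, and each neighbouring pair was separate in all libraries except the last. At day 6, Krt7 (1.59 to 1.89 TPM) and Krt8 (1.51 to 1.67 TPM) overlapped. At day 12 they overlapped again, with means of 2.2 for Krt7 and 2.34 for Krt8. Among the 16353 tested genes Vim ranked 176 by TPM at day 0, 190 at day 6 and 204 at day 12. Krt80 moved from rank 4606 at day 0 to 8342 at day 6 and 7002 at day 12, and Krt8 from 12452 to 11971 and 11777.

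The promoters of Krt20, Nes and Krt7, which were lower at day 6, are shown beside that of Krt8, which was higher. Each is the 250 bases before the RefSeq start of the gene on its own strand, 5′ to 3′ (RefSeq, GRCm38.p6), and 7 of the 9 members have an entry. Capitals mark matches, on either strand, to 4 short motifs. They are TGANTCA for the AP-1 site, GGGCGG for the SP1 site, GGAATG for the TEAD site and TATAAA for the core of the TATA box. The Krt20 window is chr11:99438154-99438403 (minus strand), the Nes window chr3:87970843-87971092 (plus), the Krt7 window chr15:101412153-101412402 (plus) and the Krt8 window chr15:102004343-102004592 (minus).
Krt20: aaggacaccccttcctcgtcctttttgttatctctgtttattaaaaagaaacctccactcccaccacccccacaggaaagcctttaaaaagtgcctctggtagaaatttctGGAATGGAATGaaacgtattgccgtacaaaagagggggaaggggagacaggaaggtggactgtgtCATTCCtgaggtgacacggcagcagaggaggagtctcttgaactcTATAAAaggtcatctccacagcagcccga
Nes: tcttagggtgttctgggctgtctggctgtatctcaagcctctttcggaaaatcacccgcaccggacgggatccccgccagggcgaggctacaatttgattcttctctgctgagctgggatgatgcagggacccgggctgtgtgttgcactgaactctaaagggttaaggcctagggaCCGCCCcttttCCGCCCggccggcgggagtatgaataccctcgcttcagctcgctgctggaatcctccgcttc
Krt7: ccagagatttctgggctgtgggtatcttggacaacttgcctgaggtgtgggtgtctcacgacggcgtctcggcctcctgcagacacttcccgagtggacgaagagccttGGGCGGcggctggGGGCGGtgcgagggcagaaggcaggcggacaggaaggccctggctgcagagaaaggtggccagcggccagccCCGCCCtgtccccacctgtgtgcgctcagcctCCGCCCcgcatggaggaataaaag
Krt8: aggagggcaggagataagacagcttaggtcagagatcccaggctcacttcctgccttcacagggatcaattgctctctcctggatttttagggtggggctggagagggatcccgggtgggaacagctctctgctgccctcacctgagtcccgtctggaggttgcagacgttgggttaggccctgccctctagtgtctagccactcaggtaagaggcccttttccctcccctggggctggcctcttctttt
Krt20 holds GGAATG at 139 and 134 bases before the start, a pair of copies that overlap by 1 base, and again on the other strand at 74 bases, and TATAAA at 29 bases. GGAATG is in 12.6% and TATAAA in 12.4% of the 32851 promoter windows of that length in the same table. Nes holds GGGCGG at 73 and 62 bases before the start, both on the other strand, and Krt7 holds it at 141 and 128 bases and on the other strand at 56 and 24. GGGCGG is in 32.7% of windows. None of the 4 motifs is in the Krt8 window, nor in that of Krt18, and TGANTCA, in 6.75% of all windows, is in none of the members' windows. No motif of the 4 was thus in all the windows of Krt20, Krt7, Nes and Vim, which were lower at day 6. Lmna, which was higher at day 6 as Krt8 was, holds GGGCGG on the other strand at 52 bases before a start (window chr3:88503353-88503602). GGGCGG was therefore found in windows of both lower and higher members. A match describes letters only, and the lack of one says only that these letters are not in the window.

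Most of the rest of the keratin family was at or near 0. Of 48 other keratin genes, 11 were at 0 in all libraries and 37 were below 0.1 TPM in all, and 8 passed the filter. Of those 8, 2 were higher and 4 lower at day 6 against day 0, 4 were higher and 0 lower at day 12 against day 6, and 1 was higher and 3 lower at day 12 against day 0. The median log2 fold changes were -1.15, 0.52 and -0.48. Named here are the 3 with the smallest adjusted p at day 6. Krt90 (chr15:101552356-101562950) had means of 5.64 ± 0.062 CPM before treatment, 1.17 ± 0.35 on day 6 and 1.9 ± 0.29 on day 12 (SD, n = 3), a log2 fold change of -2.29 ± 0.16 at day 6 (edgeR adjusted p = 4.84e-09). Krt79, a type II keratin of hair follicle and sebaceous ducts, fell by 2.42 ± 0.26 at day 6 (edgeR adjusted p = 7.47e-07) and rose by 1.56 from day 6 to day 12 (edgeR adjusted p = 0.000318). Krt17, a type I keratin of basal and stressed epithelium, fell by 1.81 ± 0.3 at day 6 (edgeR adjusted p = 7.51e-05), and its day 12 step was -0.32 (edgeR adjusted p = 0.512). Krt79 and Krt17 stayed below 1 CPM in all groups, and Krt10 and Krt90 were the only other keratins with a mean of 1 TPM or more in a group. Krt90 had means of 3.23, 0.693 and 1.31 TPM. Krt10 was above Krt7 and Krt8 in mean TPM on all 3 days. Krt5 and Krt14, the basal pair of stratified epithelium, reached at most 0.18 and 0.03 TPM.

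**Figure D4:**
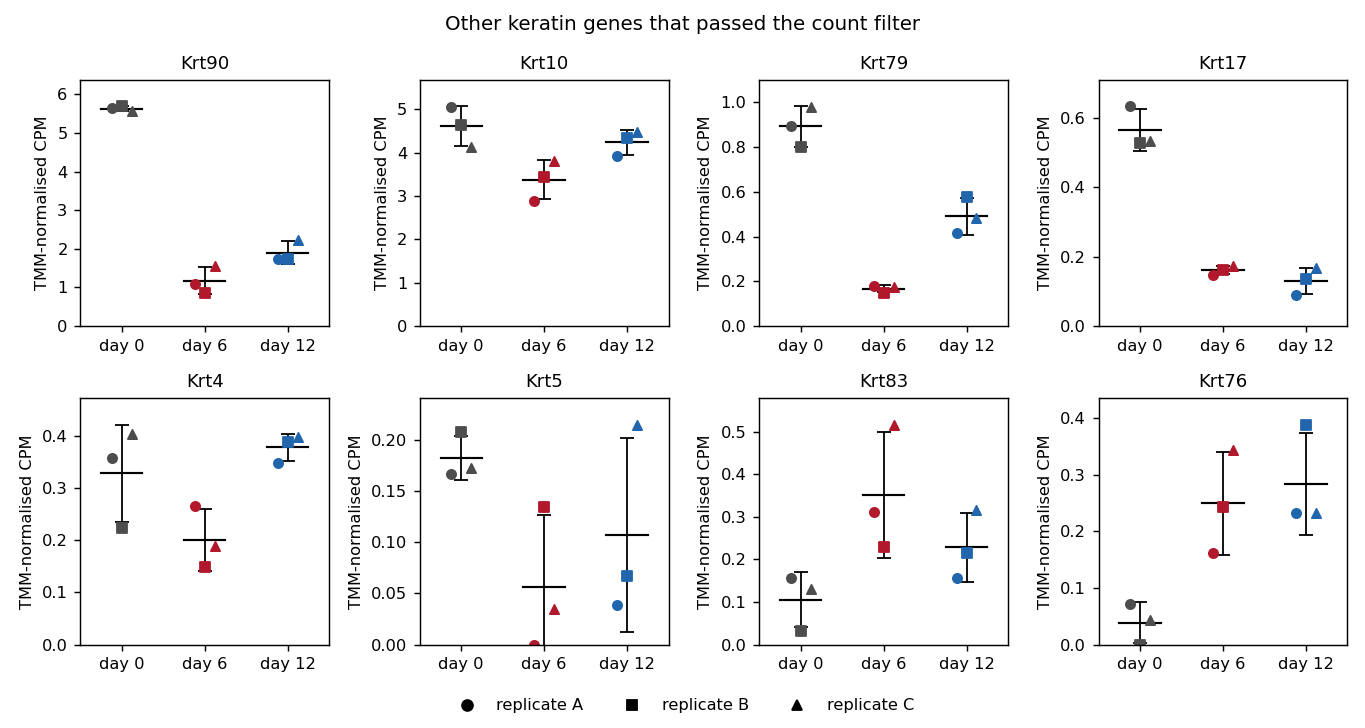
CPM (vertical axes, from 0) in each library of the keratins outside the 6 members that passed the low-count filter, by day (horizontal axis), with points for libraries, horizontal lines for the mean and bars for the SD of 3 libraries. Krt90 drops from a mean of 5.64 CPM at day 0 to 1.17 at day 6, and stands at 1.9 at day 12.

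The list of other cytoplasmic filament genes, which also includes the gene of the filament-binding protein epiplakin, held 13, of which 7 were tested. At day 6 against day 0, 4 were higher and 2 lower (median log2 fold change 0.36), and from day 6 to day 12 2 were higher and 3 lower (-0.06). Des, the gene of the muscle filament desmin, rose at day 6 by 1.72 ± 0.12 (edgeR adjusted p = 7.43e-09), from 1.57 ± 0.24 to 5.22 ± 0.67 CPM, and stood at 3.63 ± 0.087 at day 12 (SD, n = 3). Synm, whose product synemin links vimentin and desmin filaments to other structures, was at 6.73 ± 0.26, 9.57 ± 0.47 and 7.6 ± 0.66 CPM. Eppk1, the gene of epiplakin, which binds keratin and vimentin filaments, was at 26.4 ± 0.89, 41.4 ± 2.7 and 34.7 ± 4.4 CPM. All 3 thus had their highest mean at day 6, when Vim, Nes, Krt80 and Krt20 were below their day 0 values. They are the 3 of the list with the smallest adjusted p at day 6, and not all of the list moved so. Prph was at 4.19 to 4.96 TPM at day 0, 1.95 to 3.18 at day 6 and 3.58 to 7.83 at day 12. Ina was at 0.19 to 0.27, 0.03 to 0.1 and 0.17 to 0.23 TPM.

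Genes of the nuclear lamina and envelope were all 19 tested, and 6 were higher and 11 lower at day 6 against day 0 (median log2 fold change -0.15). From day 6 to day 12, 5 were higher and 7 lower (median -0.00). Like Lmna, Syne3, whose product nesprin-3 ties plectin and intermediate filaments to the nuclear envelope, rose at day 6 and then fell, with 20.4 ± 0.38, 38.1 ± 1.3 and 24.1 ± 1.3 CPM. Tmpo, the gene of the lamina-associated polypeptides 2, went with Lmnb1, at 899 ± 28, 530 ± 8.6 and 563 ± 20 CPM.

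Plakins and desmosomal or hemidesmosomal proteins anchor filaments at the cell surface, and 15 of 16 such genes were tested. At day 6, 5 were higher and 7 lower (median log2 fold change -0.17), and 2 were higher and 7 lower at day 12 against day 6 (median -0.18). Ppl, the gene of the plakin periplakin, fell from 144 ± 3.6 CPM at day 0 to 79.5 ± 3.4 at day 6 and 66.9 ± 1.8 at day 12. Dsg2, a desmosomal cadherin, fell from 29.3 ± 1.4 to 13.7 ± 0.64 CPM at day 6 and was at 12.7 ± 0.38 at day 12, a last step that was not called (edgeR adjusted p = 0.102). Itgb4, the integrin chain of hemidesmosomes, rose from 3.59 ± 0.15 to 10.4 ± 0.36 CPM at day 6 and was at 9.68 ± 0.23 at day 12. The day 12 step of Itgb4 was not called either (edgeR adjusted p = 0.191), and for none of the 3 was a move back towards day 0 called. On TMM-scaled counts Krt7 and Vim had no such call either, while Krt80, Krt20, Nes and Lmna each had one. With limma on log2(TPM + 1) Vim was called higher at day 12 than at day 6 (0.15, adjusted p = 0.0105). The Lmna step was not called there (0.06, adjusted p = 0.264). Ppl, Dsg2 and Itgb4 do not stand for the list. Pkp2 was at 35.8 to 38.1 TPM at day 0, 25.6 to 28.1 at day 6 and 36.1 to 37.4 at day 12.

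Chaperones, adaptors and other keratin partners were 16, all tested, with 4 higher and 8 lower at day 6 (median log2 fold change -0.08) and 6 higher and 2 lower at day 12 against day 6 (0.03). Hspb1, a small heat shock protein that binds keratin filaments, fell from 151 ± 1.7 to 110 ± 1.7 CPM at day 6 and rose to 172 ± 6.3 at day 12, above day 0 (edgeR adjusted p = 7.56e-05). Ywhaz, a 14-3-3 protein, fell from 969 ± 5.7 to 819 ± 16 CPM at day 6 and stood at 800 ± 6.8 at day 12.

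The genes whose log2 CPM followed a member most closely are given as a description over 9 libraries that share their 3 groups, among 9290 genes with a mean of at least 10 CPM. Krt80 was most like Cyb561 (Pearson r = 0.999) and Aldh1a2 (r = 0.997), and Krt20 most like Prmt7 and Iah1 (r = 0.997 each). For Nes the nearest were Nup133 (r = 0.995) and Fam234b (r = 0.994), for Krt8 Zfp251 (r = 0.985) and Fam120b (r = 0.984), and for Vim Rsl1d1 (r = 0.987) and Mrpl48 (r = 0.985). Krt7 and Lmna had few close followers, with 22 and 6 genes at r of 0.95 or more, against 859 for Krt80, 588 for Nes and 482 for Krt20. Krt7 held only 129 to 351 counts in a library, and Krt8, with 147 such genes, held 80 to 215. The part of counting noise in these numbers was not tested. Among the members themselves, Krt80 with Nes (r = 0.97), Krt20 with Nes (r = 0.96) and Krt80 with Krt20 (r = 0.95) were the closest, and Krt8 ran opposite to Vim (r = -0.92).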

How the data were processed

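Polyadenylated RNA of 1 mouse line was sequenced in 9 libraries. The authors deposited whole-number counts per gene and TPM, which scale by transcript length and library. The submitters' processing notes name RSEM 1.3.3, STAR 2.7.8a, FastQC 0.11.8, cutadapt 2.3 and the build GRCm38. What each did, how strand was counted and which annotation served is not given in the sources used here. The whole numbers may be RSEM estimates that were rounded.

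Left out were 4 transgene entries (0.00204 to 0.00284% of counts). Positions came from GENCODE M21 (Ensembl 96), which held 55141 of the 55487 identifiers. The quasi-likelihood test of edgeR 4.0.16 (R 4.3.3) was run after filterByExpr and TMM scaling, with 1 mean per group and all 9 libraries fitted together. Benjamini-Hochberg adjustment ran over all 16353 genes, with calls at an adjusted p under 0.05, and the SE follows from the F statistic. "Rose" and "fell" denote such calls. Alternatives used DESeq2 1.42.0, limma 3.58.1 on TPM, other filters and scalings, a replicate block and leaving out each library.

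The members, gene lists and motifs were chosen with earlier results of these data known. Named are all members, the 3 genes of a list with the smallest adjusted p at day 6 against day 0, and the 2 genes most correlated with a member (mean of 10 CPM or more, prior count 2, predicted models left out). Other genes named were chosen after their values were seen, and not every gene that the rule gave is given with values.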

Additional observations from a re-analysis of the deposited data

How the results depend on the processing

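The 7 calls at day 6 against day 0 held under every alternative run, as did those of Krt80, Krt20 and Nes for day 12 against day 6. With limma on log2(TPM + 1) or log2(TPM + 0.1), 5 members were higher and 0 lower at day 12 against day 6, and 2 higher and 2 lower against day 0. Upper-quartile factors also gave 2 higher against day 0. On TPM the day 12 minus day 6 log2 difference was 0.20 (pseudocount 1) and 0.29 (pseudocount 0.1) for Krt7, 0.15 for Vim and 0.06 for Lmna with either, and the day 12 minus day 0 difference of Vim was 0.01. With upper-quartile factors the Vim step from day 6 was 0.01, also not called. Leaving out 1 library at a time gave -0.17 to 0.02 for the Krt7 step from day 6, the latter without day 6 replicate B. For the keratin type balance, summing all keratins at 1 TPM or more gave 0.47 (day 6 minus day 0), -0.02 (day 12 minus day 6) and 0.45 (day 12 minus day 0), and counts per kilobase of exons gave -0.01 for day 6 minus day 0. The added genes are Krt10 and Krt90. For the other changes the cause was not tested, except that the median of all genes for day 12 against day 6 was 0.164 on log2(TPM + 1) and 0.00836 with TMM.

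Same-lettered replicates did not deviate together (r between -0.08 and 0.08, beside -0.11 to 0.1 for other letters). Whether the letters pair cultures is not stated, and these correlations cannot decide it, since a small shared effect could go unseen. With the replicate block the counts stayed at 7, 4 and 6 members changed. Krt18 and Krt19 were limited by depth.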
